A study of Homo sapiens with 66 samples.

Results

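The set, grouped under the name of interferon-induced genes, holds 7 genes: the members of the poly(ADP-ribose) polymerase (PARP) family PARP10, PARP11, PARP12, PARP14 and PARP9, the partner of PARP9, DTX3L, and the zinc-finger antiviral protein ZAP, encoded by ZC3HAV1. For PARP11 this name does not describe these data, where IFN-α gave a log2 fold change of −0.02. The 7 genes were chosen by name and found by Ensembl identifier, 7 of the 57820 genes counted, and all 7 passed the filter on low counts in both RNA-seq experiments. All libraries came from THP-1, a human monocytic leukaemia cell line, carrying a Cas9 transgene and nucleofected with 2 guide RNAs at a time. In study 1, a THP-1 clone lacking STING received nontargeting guides (CTRL), guides to hnRNPC, ADAR or both (ADAR+hnRNPC), or a guide to GFP, and was harvested 3, 4 or 5 days later. A further CTRL group of day 4 had IFN-α added on day 3. Study 1 has 16 groups of 3 libraries. In study 2, a clone labelled WT received other guides against the same genes and was harvested on day 4, as whole cells (total) and as the digitonin-soluble, cytosolic fraction for CTRL, hnRNPC, ADAR and ADAR+hnRNPC, and as the digitonin-insoluble fraction, which holds nuclei and mitochondria, for hnRNPC only. Study 2 has 9 groups of 2 libraries. Each targeted population is a pool of edited cells of 1 clone, and every group, CTRL included, was nucleofected and expresses Cas9.

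Type I interferon acts through the receptor-activated factor ISGF3, which binds the interferon-stimulated response element (ISRE) of its target genes. The GAS element is another interferon-responsive sequence. ADAR edits adenosine to inosine in double-stranded RNA, and loss of this editing can let cellular RNA be read as foreign. hnRNPC binds uridine tracts in nascent transcripts, many of them in Alu elements, and keeps cryptic Alu exons out of mature mRNA. PARP10, PARP11, PARP12 and PARP14 attach single ADP-ribose units to proteins, and PARP14 also carries macrodomains that bind ADP-ribose. PARP9, another macrodomain protein, pairs with the ubiquitin ligase DTX3L. ZAP binds CpG-rich RNA, mostly viral, and brings it to RNA decay, and its long form ends in a PARP-like domain with no known catalytic activity that the short form lacks.

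Promoters of RefSeq genes (GRCh38.p14, 250 bases before and 50 after each start) were searched on both strands for the ISRE letters GAAANNGAAA and the GAS letters TTCNNNGAA. Of 35116 promoters, 3.57% held the first and 7.66% the second. The following sequences are shown because they set the members with a match beside each other, in the order PARP12 (chr7:140062927-140062986, minus strand), PARP14 (chr3:122680774-122680844, plus strand), DTX3L (chr3:122564307-122564366, plus strand) and ZC3HAV1 (chr7:139109791-139109849, minus strand). Each runs 5′ to 3′ on the strand of its gene, and capitals mark the matches.
PARP12: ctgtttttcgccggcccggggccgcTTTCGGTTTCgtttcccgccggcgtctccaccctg
PARP14: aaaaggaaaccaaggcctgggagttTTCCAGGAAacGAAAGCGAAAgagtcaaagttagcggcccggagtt
DTX3L: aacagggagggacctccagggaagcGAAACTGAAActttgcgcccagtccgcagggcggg
ZC3HAV1: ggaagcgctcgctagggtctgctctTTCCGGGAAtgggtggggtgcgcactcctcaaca

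PARP12 held an ISRE match on the opposite strand, PARP14 a GAS match followed by an ISRE match, and DTX3L an ISRE match. The DTX3L match also lies in one of the PARP9 promoters of the table, on the other strand, so the pair shares it. ZC3HAV1 held a GAS match and no ISRE match. Neither set of letters was found for PARP11 or in the other PARP9 promoter. These matches describe the letters in these windows, and binding was not measured.

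In GRCh37 coordinates, PARP9 (ENSG00000138496.12, chr3:122246771-122283424, minus strand) and DTX3L (ENSG00000163840.5, chr3:122283185-122294050, plus strand) stand head to head and share 240 bp at their 5′ ends. PARP14 (ENSG00000173193.9, chr3:122399686-122449687, plus strand) begins 105635 bp beyond DTX3L. ZC3HAV1 (ENSG00000105939.8, chr7:138728261-138816868, minus strand) and PARP12 (ENSG00000059378.8, chr7:139723549-139762751, minus strand) lie 906680 bp apart. PARP11 (ENSG00000111224.9, chr12:3900213-3982614, minus strand) overlaps PARP11-AS1 and the pseudogene OTUD4P1. PARP10 (ENSG00000178685.9, chr8:145051321-145086940, minus strand) overlaps GRINA and SPATC1. The sources used here do not state whether reads were counted by strand, so reads in these overlaps, and in the 240 bp shared by PARP9 and DTX3L, may belong to either gene.

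Reads counted in genes ranged from 95107690 to 152829008 a library in study 1 and from 49666958 to 73873756 in study 2. Summed markers of the monocytic lineage (LYZ, CD33, ITGAM, CSF1R, SPI1, CD14) stood at 266 to 799 CPM (counts scaled to library size) in study 1 and 185 to 485 in study 2, although CD14 itself was at 0.0991 to 3.93 CPM. Of markers of other cells, CD3E (T cells), MS4A1 (B cells), EPCAM (epithelial cells), COL1A1 (fibroblasts) and HBB (erythroid cells) reached at most 0.0726, 0.0396, 0.112, 0.311 and 0.0595 CPM in study 1 and 0.0601, 0.0353, 0.0991, 0.260 and 0.816 CPM in study 2. On day 5, mean HNRNPC was 832 CPM with control guides and 317 CPM with the hnRNPC guide. Mean ADAR, itself an interferon-induced gene, was 394 CPM with control guides, 386 with its own guide and 1322 with both guides, and since small deletions need not lower reads over exons, these counts do not check the edit. In total RNA of study 2, mean ADAR was 864 CPM with control guides, 506 with its own guide and 788 with both guides. The study reports that Western blots showed successful targeting of both genes in THP-1 cells.

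In CTRL cells of study 1 on day 5, divided by exon length, the members fell into 3 tiers. DTX3L (14.4 ± 0.498 CPM per kb, SD, n = 3), ZC3HAV1 (13.6 ± 0.381) and PARP14 (10.8 ± 1.24) were highest, PARP10 (3.58 ± 0.457), PARP12 (3.00 ± 0.142) and PARP9 (1.93 ± 0.0821) followed, and PARP11 (0.619 ± 0.0317) was lowest. DTX3L and ZC3HAV1 differed by less than their summed SDs, as did PARP10 and PARP12. Between days 3 and 5, CTRL cells changed in no member by the rule used throughout, a log2 fold change of at least 1 in size with an adjusted p of at most 0.05. By that rule 0.447% of all genes tested were higher and 0.22% lower. The GFP guide changed no member on day 3, 4 or 5, against 0.0227%, 0% and 0.189% of all genes higher. For these 4 comparisons the members with an unadjusted p under 0.05 in edgeR numbered 1, 0, 0 and 1, and no member was called by DESeq2 or limma-voom.

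IFN-α, added a day before harvest, raised 5 of the 7 members, against 1.21% of all genes tested. The members' median log2 fold change was 2.00 and that of all genes 0.02. PARP9 was listed at 16.3, 17.1 and 16.3 CPM in CTRL of day 4 and at 259, 300.2 and 318 CPM after IFN-α, the steepest change of the set at 17.7-fold (log2 fold change 4.14 ± 0.118, SE, edgeR adjusted p = 2.53e-26). DTX3L, its partner, went from 80.6, 87.5 and 83.1 to 258, 311 and 349 CPM, 3.66-fold. PARP14 went from 104, 117 and 115 to 892, 1124 and 1200 CPM, 9.57-fold (edgeR adjusted p = 9.87e-23). In all 3 genes each treated library lay above every CTRL library. PARP12 rose 4.85-fold, from 14.9–16.4 to 71.3–82.8 CPM, and PARP10 rose 3.99-fold, from 25.8–33.3 to 103–124 CPM. ZC3HAV1 passed the p threshold but not the fold threshold: its libraries stood at 118, 133 and 117 CPM in CTRL and 137, 160 and 158 CPM after IFN-α, a log2 fold change of 0.31 (edgeR adjusted p = 0.00889). PARP11 gave −0.02 (edgeR adjusted p = 0.952), and its IFN-α libraries (2.69 to 4.32 CPM) spanned the CTRL libraries (3.05 to 3.74 CPM). Its sign turned when single libraries were left out.

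**Figure D1:**
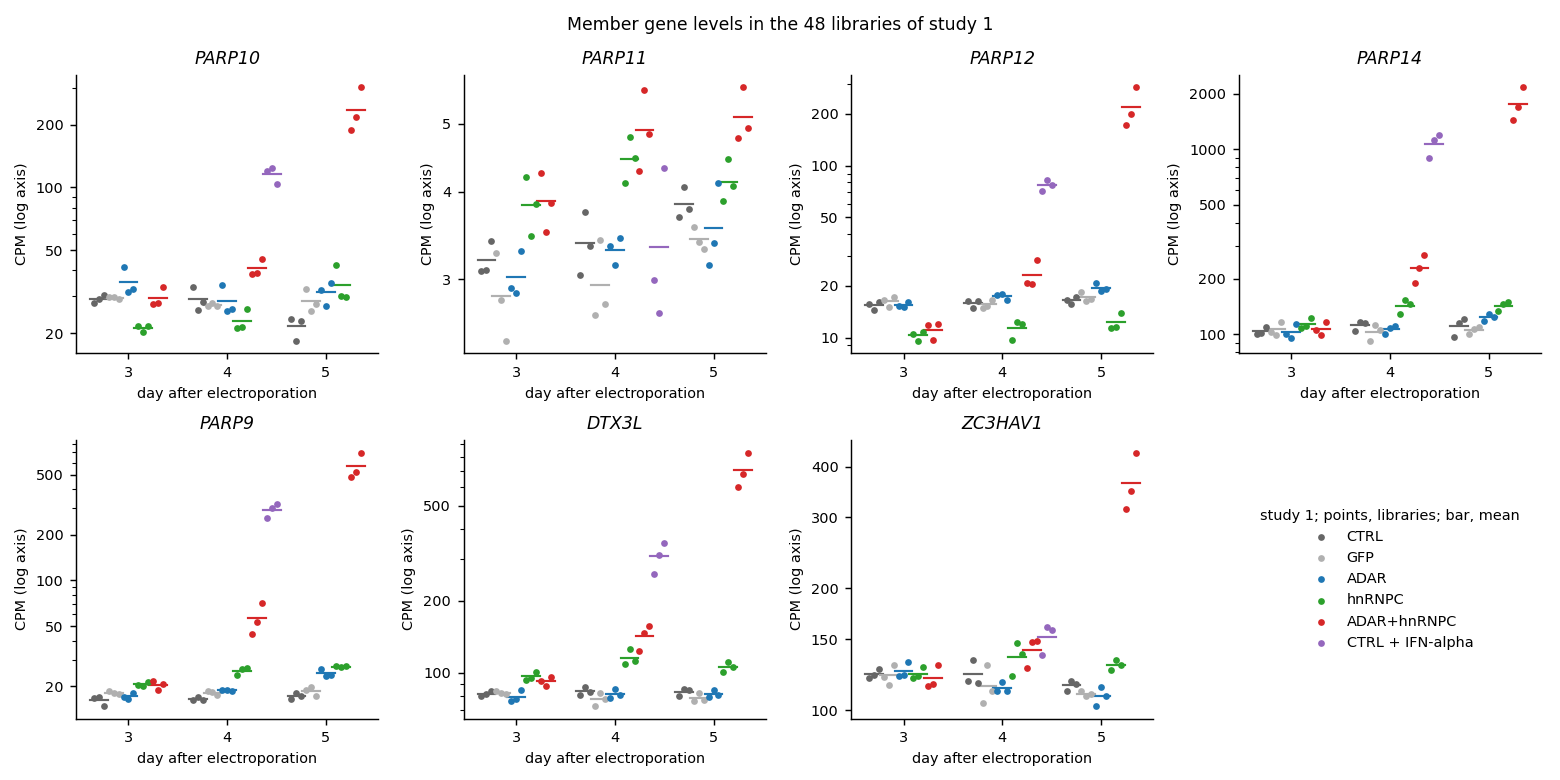
Levels of the 7 members in study 1 in CPM on a log axis against the day after electroporation (nucleofection), 1 panel per gene, where points are libraries and short bars group means. ADAR+hnRNPC libraries of day 5 sit above all others for every member but PARP11, and the IFN-α libraries of day 4 come next for all but PARP11 and ZC3HAV1.

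Targeting ADAR and hnRNPC together raised 6 of the 7 members by day 5, against 9.41% of all genes tested. The members' median log2 fold change was 3.45 and that of all genes −0.04. PARP11, the exception, was at 3.68, 4.06 and 3.77 CPM in CTRL and at 4.77, 5.63 and 4.93 CPM in ADAR+hnRNPC-targeted cells, which do not overlap but differ by a log2 fold change of only 0.41 ± 0.134 (edgeR adjusted p = 0.00623). These are bulk libraries, in which a higher level per cell and a larger share of responding cells cannot be told apart.

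Among the mono-ADP-ribosyltransferases, PARP14 reached the highest level: 1437, 1689 and 2164 CPM in the double-targeted libraries of day 5 against 96.7, 116 and 121 CPM in CTRL, 15.9-fold (log2 fold change 3.99 ± 0.130, edgeR adjusted p = 1.93e-25). PARP12 stood at 16.6, 15.7 and 17.3 CPM in CTRL and at 171, 201 and 286 CPM in double-targeted cells, 13.2-fold. PARP10 stood at 23.4, 18.4 and 22.9 CPM in CTRL and at 189, 218 and 303 CPM in double-targeted cells, 10.96-fold. In each of the 3 genes replicate 3 was the highest of the double-targeted libraries, and the lowest of them was still several times the highest CTRL library.

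PARP9 showed the largest fold change of the set, 32.9-fold, from 16.5, 17.96 and 17.3 CPM in CTRL to 480.5, 522 and 699 CPM (log2 fold change 5.04 ± 0.123, edgeR adjusted p = 1.51e-28). DTX3L started from a higher level, 79.9, 85.3 and 84.3 CPM, and reached 598, 679 and 833 CPM, 8.45-fold (edgeR adjusted p = 2.41e-26). ZC3HAV1 rose 3.16-fold, from 112, 118 and 116 to 314, 348 and 434 CPM (log2 fold change 1.66 ± 0.0859, edgeR adjusted p = 2.03e-19). Per kb of exon the order on day 5 was PARP14 (172 ± 35.9 CPM per kb), DTX3L (122 ± 20.7), PARP9 (63.5 ± 13.0), ZC3HAV1 (43.1 ± 7.28), PARP12 (39.8 ± 10.8), PARP10 (39.2 ± 9.80) and PARP11 (0.824 ± 0.0744). The levels of ZC3HAV1, PARP12 and PARP10 lay within their spread.

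Most of the change came between days 4 and 5. On day 3 the double-targeted cells had 0 members called, against 0.864% of all genes higher and 0.303% lower, with 3 members at an unadjusted p under 0.05 in edgeR and none called by DESeq2 or limma-voom. PARP12 was then lower than in CTRL (11.8, 9.73 and 11.9 against 15.6, 14.54 and 16.1 CPM, log2 fold change −0.47, edgeR adjusted p = 0.00317). On day 4, 2 members were called higher, against 3.42% of all genes. PARP9 stood at 44.5, 53.3 and 71.4 CPM, above the 16.3 to 17.1 CPM of CTRL (log2 fold change 1.77, edgeR adjusted p = 2.65e-16), and PARP14 at 188, 229 and 267 CPM, above the 104 to 117 CPM of CTRL. PARP14 lay at the threshold: its log2 fold change was 1.02, but 0.97 without CTRL replicate 1 and 0.90 without ADAR+hnRNPC replicate 3, where it lost the call. DTX3L (0.76), PARP12 (0.54), PARP11 (0.53) and PARP10 (0.49) passed the p threshold alone on day 4, with edgeR adjusted p from 2.44e-09 to 0.00366, and so did ZC3HAV1 (0.20, edgeR adjusted p = 0.0405). Between days 4 and 5 within double-targeted cells, 6 members rose, against 3.41% of all genes, by a log2 fold change of 1.37 for ZC3HAV1 to 3.33 for PARP9, while PARP11 gave 0.06.

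Neither single edit passed the rule for any member in study 1. In ADAR-targeted cells no member was called on day 3, 4 or 5, against 0%, 0.0682% and 0.273% of all genes higher, and edgeR gave 0, 0 and 2 members with an unadjusted p under 0.05. The latter were PARP9 on day 5, at 26.2, 23.5 and 23.6 CPM against 16.5 to 17.96 in CTRL (log2 fold change 0.50, edgeR adjusted p = 0.00323), and PARP10, at 32.1, 27.0 and 34.9 against 18.4 to 23.4 CPM (0.54, edgeR adjusted p = 0.018). In hnRNPC-targeted cells no member was called either, against 0.553%, 1.59% and 3.98% of all genes higher and 0.485%, 1.63% and 3.74% lower on days 3, 4 and 5, with 4, 6 and 5 members at an unadjusted p under 0.05. DESeq2 and limma-voom also called none in any of these 6 comparisons. PARP9 was above CTRL in all 9 hnRNPC-targeted libraries, at 20.2–21.3, 23.8–26.4 and 26.8–27.1 CPM on the 3 days, with log2 fold changes of 0.34, 0.62 and 0.64. DTX3L was likewise above CTRL, with 0.24, 0.46 and 0.35. PARP12 was below CTRL in all 9, at 9.60–10.7, 9.74–12.3 and 11.3–13.9 CPM (−0.59, −0.48 and −0.44, edgeR adjusted p = 0.000222, 0.00101 and 0.00194). The PARP10 difference had opposite signs over time, with −0.47 on day 3, −0.34 on day 4 and 0.66 on day 5, each at an edgeR adjusted p of 0.0491 or less. PARP10 in CTRL was itself lower on day 5 than on day 3 (18.4–23.4 against 28.0–30.6 CPM, log2 fold change −0.44, edgeR adjusted p = 0.0229). GFP-targeted libraries of day 5 held 25.4–32.7 CPM and overlapped both the hnRNPC-targeted (29.9–42.3 CPM) and the ADAR-targeted ones.

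Double-targeted cells were then set against each single edit. Against ADAR-targeted cells 2 members (PARP14, PARP9) were called higher on day 4, against 2.73% of all genes, and 6 on day 5, against 7.47%. Against hnRNPC-targeted cells 2 members (PARP12 at 1.03 and PARP9 at 1.15) were called higher on day 4, against 1.2% of all genes, and 6 on day 5, against 5.82%. The 2 calls against hnRNPC on day 4 rested on few libraries: 1 remained without hnRNPC replicate 1, and none without ADAR+hnRNPC replicate 3. The member not called on day 5 was PARP11, with 0.53 and 0.31.

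The interaction term compares the log2 change under both guides with the sum of the changes under each, and was called at an adjusted p of at most 0.05 with no fold threshold. On day 3 no member passed (0% of all genes in either direction, 0 members at an unadjusted p under 0.05 in edgeR, none by DESeq2 or limma-voom). On day 4 there were 4, all positive, against 3.11% of all genes with a positive and 0.925% with a negative term: PARP9 (0.98 ± 0.176, edgeR adjusted p = 0.00901), PARP12 (0.90 ± 0.169, 0.0108), PARP14 (0.76 ± 0.154, 0.0163) and PARP10 (0.86 ± 0.178, 0.0183). PARP10 lost its call without hnRNPC replicate 2, ADAR replicate 3 or ADAR+hnRNPC replicate 3 of that day. DTX3L, not called on day 4, gained a call with the replicate number as a block, which made 5 (0.35 on the log2 scale), and with DESeq2, limma with quality weights and library totals. On day 5 there were 6, all positive, against 22.8% of all genes with a positive and 25.5% with a negative term. PARP12 gave 3.91 ± 0.201 (edgeR adjusted p = 1.99e-09), PARP9 3.87 ± 0.153 (2.43e-10), PARP14 3.46 ± 0.173 (1.41e-09), DTX3L 2.74 ± 0.133 (1.09e-09), PARP10 2.23 ± 0.231 (3.17e-06) and ZC3HAV1 1.57 ± 0.130 (3.29e-07). PARP11 gave 0.40 ± 0.176 (edgeR adjusted p = 0.0716) and gained a call, making 7, with the replicate block (0.40), DESeq2 (0.44), limma with quality weights (0.52) and library totals (0.46), and without ADAR replicate 3 or ADAR+hnRNPC replicate 3. The members' median was 2.74 on day 5, with that of all genes at −0.04.

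**Figure D2:**
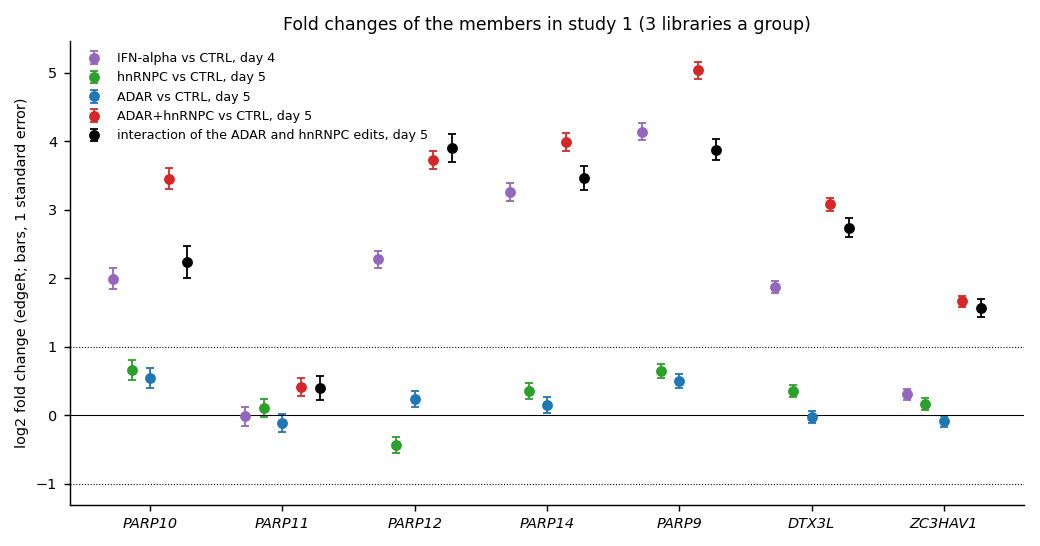
Log2 fold changes of each member in 5 comparisons of study 1, with bars of 1 SE from edgeR and dotted lines at 1 and −1. Both single edits on day 5 lie between −0.44 and 0.66 for all 7 genes, IFN-α lies above 1 for 5 genes, and the double edit and the interaction of day 5 lie above 1 for 6.

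Double-targeted cells of day 5 and IFN-α-treated cells of day 4 were also compared directly, although day and guides both differ between them. By edgeR 4 members were higher in double-targeted cells, against 8.84% of all genes: PARP12 (2.85-fold), ZC3HAV1 (2.41-fold), DTX3L (2.30-fold) and PARP10 (2.04-fold). PARP9 gave a log2 difference of 0.96, under the threshold, and was called by DESeq2, at 1.04. PARP14 gave 0.72. For ZC3HAV1, IFN-α gave 1.24-fold of the CTRL level of day 4 and the double edit 3.16-fold of that of day 5. PARP10 lost its call without ADAR+hnRNPC replicate 3 or IFN-α replicate 3.

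PARP9 and DTX3L moved by different amounts from their shared start region. The PARP9 to DTX3L ratio, in CPM per kb, was 0.132 to 0.136 in CTRL on day 5, 0.156 to 0.174 in hnRNPC-targeted, 0.179 to 0.213 in ADAR-targeted and 0.497 to 0.541 in double-targeted cells. IFN-α gave 0.588 to 0.648 on day 4, against 0.126 to 0.130 in CTRL of that day. None of these ranges overlapped its CTRL of the same day. The GFP guide on day 5 (0.145 to 0.160) also lay above CTRL and overlapped the hnRNPC-targeted range. The same held on day 3, with 0.1403 to 0.1425 for GFP and 0.1359 to 0.1416 for hnRNPC. On day 4 it held again, with 0.1435 to 0.164 for GFP and 0.1342 to 0.1518 for hnRNPC. Per kb of exon, DTX3L nevertheless remained the higher of the pair in every library of study 1.

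Counts over introns, the stretches left after the exons of each gene's principal transcripts were removed, were tested in the same way. They hold unspliced RNA and can also hold exons of other transcripts. Of 197626 intron features 21798 were tested, 13 of them in members: 8 in ZC3HAV1, 2 each in PARP14 and PARP9 and 1 in PARP12. None of PARP10, PARP11 or DTX3L passed the filter. In double-targeted cells of day 5, 12 of the 13 rose, against 5.49% of all introns tested, with a median log2 fold change of 2.44 in members and −0.28 over all introns. The PARP9 introns rose by 5.21 and 4.27, the PARP14 introns by 4.12 and 3.70 and the PARP12 intron by 3.72, and for PARP9, PARP14 and PARP12 the exons gave 5.04, 3.99 and 3.73. After IFN-α 5 introns rose, against 0.821%, all in PARP9, PARP14 and PARP12, and none of the 8 of ZC3HAV1. hnRNPC targeting alone raised 1 intron, against 4%, in PARP9 (chr3:122274969-122277175, log2 fold change 1.15 ± 0.293, edgeR adjusted p = 0.00249), a call lost with the GFP group as control. ADAR targeting raised 0 introns by edgeR or limma-voom, against 0%, with 1 at an unadjusted p under 0.05.

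One intronic feature of ZC3HAV1 is described because of its values and was picked after they were seen. The stretch chr7:138740042-138745781 holds the 3′ end of both short transcripts in the annotation, ZC3HAV1-202 and ZC3HAV1-204, which end at position 138745084. In double-targeted cells of day 5 its log2 fold change was 2.79 ± 0.116 (edgeR adjusted p = 3.29e-21), against 1.66 for all exons of the gene. Its reads were counted over the whole stretch, and which of them are also counted on exons was not examined. They were set against the reads on ZC3HAV1 exons. Per 100 exon reads the feature held 5.49 to 6.40 reads in CTRL on day 5 and 12.3 to 13.6 in double-targeted cells, after 7.85 to 9.06 on day 4. The hnRNPC-targeted libraries, above CTRL on each day, held 7.60 to 8.31 on day 3, 6.37 to 8.65 on day 4 and 6.52 to 7.31 on day 5. They overlapped the GFP-targeted libraries on day 4 (5.77 to 6.835) and the ADAR-targeted ones on day 5 (5.96 to 6.79). The IFN-α libraries held 5.56 to 8.11. The other 7 introns of the gene together held 14.1 to 17.8 reads per 100 exon reads in CTRL and 13.5 to 14.9 in double-targeted cells of day 5. The double-targeted libraries of day 5 were above all other libraries in this ratio, and overlapped CTRL in that of the other introns.

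**Figure D3:**
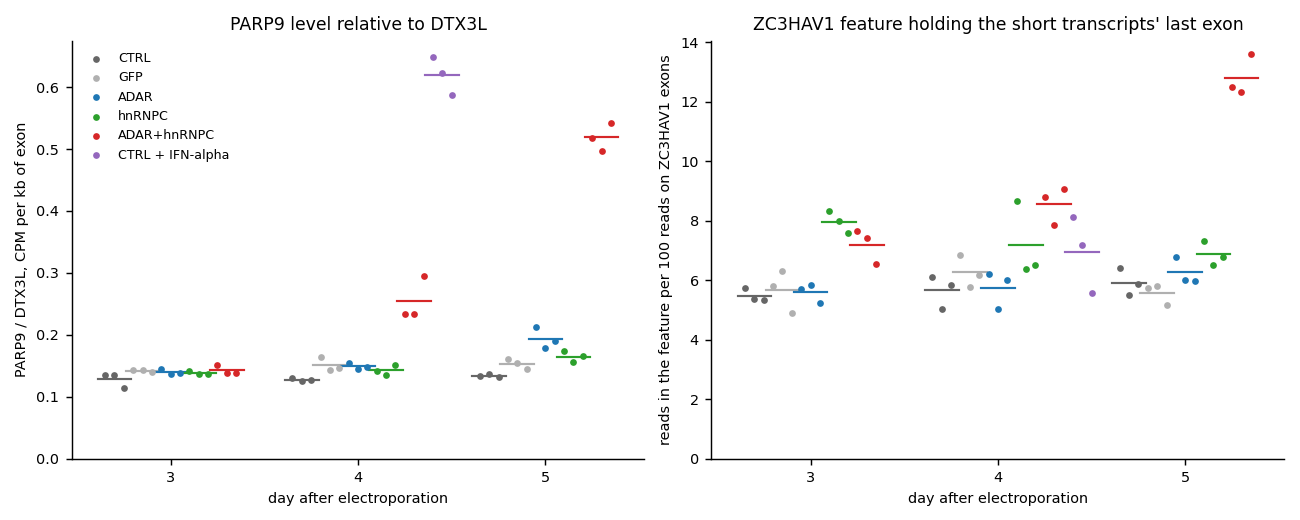
Left, the ratio of PARP9 to DTX3L in CPM per kb of exon against the day after electroporation in study 1, and right, reads in the ZC3HAV1 feature with the short transcripts' 3′ end per 100 reads on the gene's exons. Points are libraries and short bars group means. IFN-α gives 0.588–0.648 on the left and 5.56–8.11 on the right, whereas ADAR+hnRNPC on day 5 reaches 0.497–0.541 and 12.3–13.6.

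RNA editing at the members was read from the tabulated adenosine sites, as edited reads over all reads at the sites inside a gene. Sites lay in PARP9 (31), DTX3L (31 used of 33, as 2 had missing values), PARP14 (25) and ZC3HAV1 (32) in study 1, and none in PARP10, PARP11 or PARP12. No member site had 10 or more reads in every library, so all sites were used, and single libraries of PARP9 and PARP14 rest on as few as 6 and 5 reads. By the study's methods, a site was kept only if it was seen edited in a sample with intact ADAR. That choice of sites favours lower shares in ADAR-targeted libraries, and the tests below do not allow for it. Over 9 libraries a group, ZC3HAV1 was edited at 0.518% ± 0.464 (SD) in ADAR-targeted cells and 2.71% ± 1.05 in CTRL (two-sided exact permutation test within days, p = 0.00025, the smallest it can give), and DTX3L at 0.339% ± 0.537 and 2.01% ± 1.11 (exact permutation p = 0.001). PARP9 gave 1.00% ± 2.31 and 5.08% ± 4.77 (exact permutation p = 0.0475), a difference that did not hold without any one replicate number, with exact permutation p from 0.0556 to 0.611. PARP14 gave 0.585% ± 1.75 and 2.99% ± 2.89 (exact permutation p = 0.064). The 9 libraries of a group are 3 replicates on each of 3 days, and the test treats them as independent. The study describes its editing values, pooled over these days, as data from 3 independent experiments. These p-values therefore rest on fewer than 9 independent units a group and are likely too small.

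With hnRNPC targeted in both arms, ADAR+hnRNPC against hnRNPC gave 1.98% ± 1.08 against 4.36% ± 1.45 for ZC3HAV1 (exact permutation p = 0.00175), 0.715% ± 0.538 against 2.11% ± 0.90 for DTX3L (exact permutation p = 0.00125) and 1.75% ± 1.89 against 8.22% ± 4.81 for PARP9 (exact permutation p = 0.005, and 0.102 without replicate 1). PARP14 gave 1.79% ± 1.32 against 4.58% ± 4.78 (exact permutation p = 0.109). These are 8 tests in all, with the same limits on the days and the choice of sites, and the p-values are not adjusted. At the higher read numbers of the induced samples, PARP9 was edited at 12.9% to 15.1% after IFN-α (488 to 786 reads) and at 2.10% to 2.76% in double-targeted cells of day 5 (1475 to 2030 reads), groups that do not overlap.

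In study 1 the PARP9 sites lie between chr3 positions 122263555 and 122276739, and the DTX3L sites between 122289656 and 122290284. Of 2875 editing-enriched regions counted in study 1, only 1 lies in a member, chr3:122274961-122277737 in PARP9. It overlaps the PARP9 intron named above. It held 1.29 to 1.35 CPM in CTRL of day 5, 22.0 to 22.6 CPM after IFN-α and 37.0 to 52.7 CPM in double-targeted cells of day 5. Relative to the reads on PARP9 exons this was 7.18% to 7.96%, 6.92% to 8.50% and 7.54% to 7.86%, and these 3 ranges overlap.

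**Figure D4:**
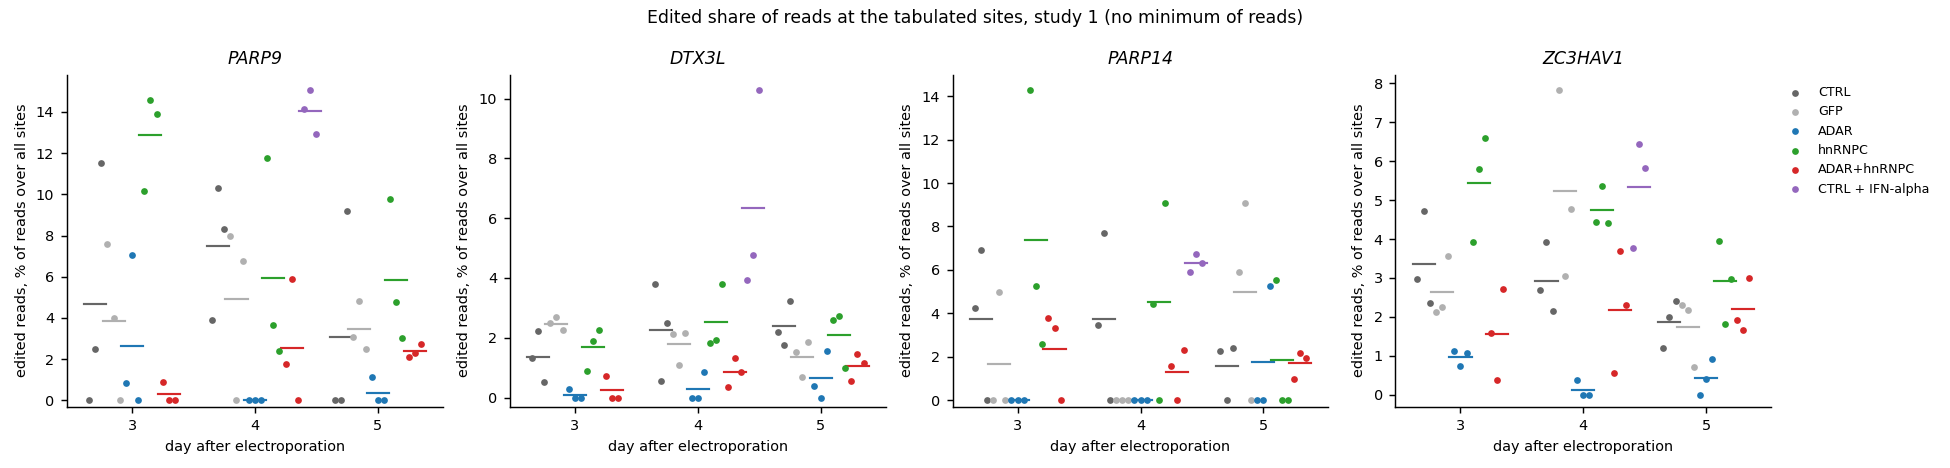
Edited reads in percent of all reads over the tabulated sites of 4 members in study 1, by library, against the day after electroporation, with no minimum of reads. ADAR-targeted libraries lie mostly at or near 0, and the IFN-α libraries reach 12.9–15.1% for PARP9 and 3.94–10.3% for DTX3L.

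In study 2, with the WT clone, other guides and a single day, ADAR+hnRNPC targeting raised 4 members in total RNA, against 3.36% of all genes (median log2 fold change of members 1.41, of all genes −0.12). PARP9 stood at 41.6 and 37.2 CPM in CTRL and 232 and 143 CPM in double-targeted cells (log2 fold change 2.25 ± 0.268, edgeR adjusted p = 2.30e-05). PARP12 went from 20.9 and 18.9 to 93.5 and 61.5 CPM (1.96), PARP14 from 224 and 190.0 to 664 and 440.4 CPM (1.41) and DTX3L from 101 and 109 to 320.3 and 241 CPM (1.42), none overlapping with CTRL. ZC3HAV1 (167 and 175 against 219 and 187 CPM) and PARP10 (44.2 and 29.2 against 79.3 and 57.7 CPM) did not pass, with 0.25 and 0.90, nor did PARP11 with 0.46. PARP10 passed without CTRL replicate 1 or double-targeted replicate 2.

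**Figure D5:**
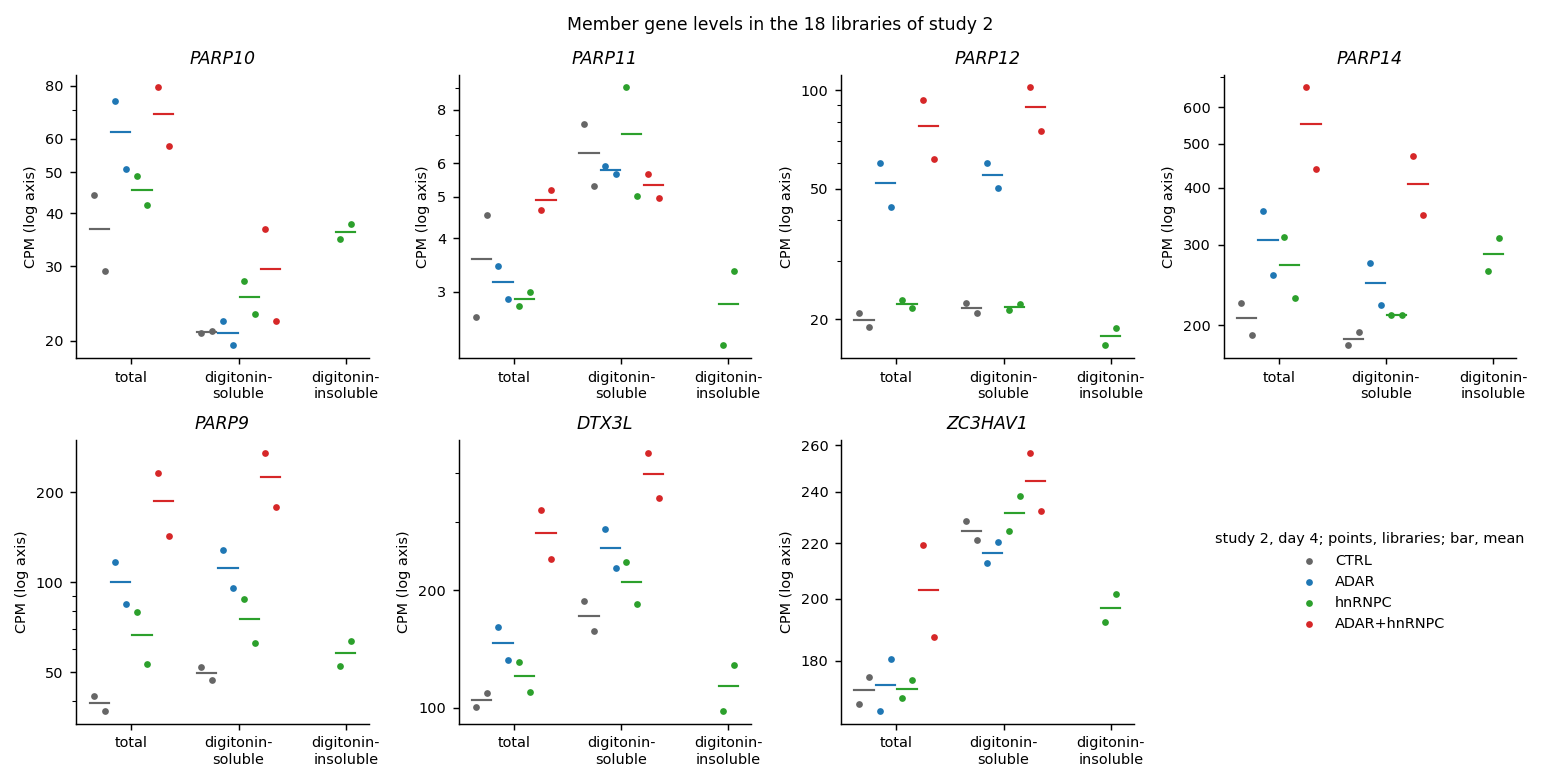
Levels of the 7 members in study 2 in CPM on a log axis, by compartment and guides, with points for libraries and short bars for means of 2. PARP12 and PARP9 are higher in ADAR-targeted than in CTRL libraries in both compartments, and PARP10 is lower in the digitonin-soluble than in the total RNA.

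ADAR targeting alone raised 2 members in study 2, PARP12 and PARP9 in total RNA, against 2.04% of all genes. PARP12 stood at 60.04 and 43.8 CPM (log2 fold change 1.38 ± 0.191, edgeR adjusted p = 0.000218) and PARP9 at 117 and 84.4 CPM (1.35 ± 0.261, edgeR adjusted p = 0.00323), all above the CTRL libraries. PARP9 lost its call without ADAR replicate 1, and PARP10 (0.76) gained one without CTRL replicate 1 or ADAR replicate 2. Whether the studies differ was not tested, since clone, guides, read length and day structure all differ between them. hnRNPC targeting alone raised none in total RNA (0.278% of all genes higher) or in cytosolic RNA (0.256%), with 1 member each at an unadjusted p under 0.05 by edgeR and none called by DESeq2 or limma-voom. The interaction had no call in total RNA, where 7.18% of all genes had a positive and 15.9% a negative term, with 2 members at an unadjusted p under 0.05 and 3 called by DESeq2, and none in cytosolic RNA (0% in either direction, 1 member at an unadjusted p under 0.05, none by DESeq2 or limma-voom).

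In the cytosolic fraction ADAR targeting raised PARP12 (1.35) and PARP9 (1.17), against 4.6% of all genes, and the double edit raised PARP12 (2.03 ± 0.194, edgeR adjusted p = 8.19e-07), PARP9 (2.18), DTX3L (1.21) and PARP14 (1.13), against 6.67%. PARP9 reached 271 and 179 CPM there, against 52.2 and 47.2 CPM in cytosolic CTRL. PARP14 lost its call without double-targeted replicate 1. A nuclear marker RNA remained in the cytosolic fraction, and in hnRNPC-targeted cells its cytosolic and total ranges overlapped (696 to 940 and 867 to 1416 CPM). The fraction is thus enriched rather than pure, and differences from total RNA do not by themselves place a transcript. PARP10 had the lowest cytosolic level of the set relative to total RNA. Over the 4 guide groups it was lower than in total RNA (log2 difference −1.11 ± 0.118, edgeR adjusted p = 2.71e-07), the only member called lower, against 8.29% of all genes, and none was called higher, against 0.601%. In double-targeted cells alone the difference for PARP10 was −1.21 (5.99% of all genes lower, 0.447% higher), and the call was lost without total replicate 1 or cytosolic replicate 2. In CTRL cells alone no member was called (10.4% of all genes lower, 0.52% higher), with 4 at an unadjusted p under 0.05 by edgeR and none called by DESeq2 or limma-voom. Over the 4 guide groups, DTX3L (0.71), PARP11 (0.77) and ZC3HAV1 (0.35) gave positive differences under the fold threshold, with edgeR adjusted p from 3.67e-06 to 0.000103. The median of all genes there was 0.17, while PARP9 gave 0.23, PARP12 0.09 and PARP14 −0.31. Between cytosolic and digitonin-insoluble RNA of hnRNPC-targeted cells only PARP11 was called, higher in the cytosol (log2 difference 1.33 ± 0.287, edgeR adjusted p = 0.000565), against 15.5% of all genes higher and 15% lower, and the call did not hold without cytosolic replicate 1.

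Editing was also read in total RNA of study 2, where 2 libraries a group were not tested. DTX3L was edited at 2.41% to 3.63% in CTRL and at 0% in both ADAR-targeted libraries (0 of 125 and 0 of 112 reads, which allow up to 2.40% and 2.68%), so that the lower CTRL library cannot be told from the ADAR-targeted ones at this depth. ZC3HAV1 was edited at 4.12% to 6.12% in CTRL and at 1.75% to 1.84% in ADAR-targeted libraries, which do not overlap. The PARP9 to DTX3L ratio per kb, 0.220 to 0.267 in CTRL, was 0.411 to 0.468 in ADAR-targeted, 0.315 to 0.392 in hnRNPC-targeted and 0.383 to 0.468 in double-targeted total RNA.

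Related genes were counted by fixed lists, to be read against the 9.41% of all genes that rose in double-targeted cells of day 5 and the 1.21% that rose after IFN-α. Of the 11 other PARP-family genes, 3 rose in double-targeted cells of day 5, TIPARP (log2 fold change 1.37), PARP15 (1.18) and PARP16 (1.01), with a median of 0.22 over the 11, and after IFN-α the 11 lay between −0.10 and 0.36 (median 0.14). Of the enzymes that remove ADP-ribose, 5 of 7 were measurable, and ADPRHL2 (1.67) and ADPRH (1.21) rose in double-targeted cells (median of the 5, 0.64). ADPRHL2 was at 0.88 after IFN-α, under the fold threshold. Of 7 measured ZAP partners only TRIM25, a ubiquitin ligase that ZAP needs for its antiviral action, rose, by 1.34 in double-targeted cells and 1.11 after IFN-α. Of the interferon signalling genes, IRF9 and STAT2 rose in both, IRF9 by 2.88 and 2.60 and STAT2 by 2.47 and 1.73.

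Over the 16 group means of study 1, as a description in which the double-targeted group of day 5 and the IFN-α group are the highest for 6 members, the genes with the profiles closest to PARP14 included EIF2AK2 (Pearson r = 0.993) and IFIH1 (0.991). For PARP9 they included SP110 (0.994) and XAF1 (0.992), and for PARP12 they were HERC5 (0.994), PLSCR1 (0.991) and DDX60 (0.990). DTX3L lay closest to SAMD9 (0.990), IFIH1 (0.989) and TRIM5 (0.988), PARP10 to PAX5 (0.986), RBCK1 (0.984) and TRIM56 (0.984), and ZC3HAV1 to TRANK1 (0.987), SGIP1 (0.980) and NT5C3A (0.976). PARP11 lay closest to ZNF678 (0.965), DENND4A (0.964) and LATS1 (0.959). Between members the closest pair was PARP14 and PARP9 (0.997), and PARP11 gave 0.327 to 0.589 with the others, whose pairs all reached at least 0.859.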

How the data were processed

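RNA-seq of THP-1 cells (48 libraries in study 1, 18 in study 2) was deposited as gene counts, intron counts, counts over editing-enriched regions and read counts at editing sites. The authors prepared stranded total RNA libraries depleted of ribosomal RNA, aligned reads to GRCh37 with STAR 2.5.4a and made the deposited counts per gene from uniquely mapped reads over exons with featureCounts; the strand setting is not given in the sources used here. No normalization had been applied. For 55538 of 57820 identifiers a symbol was matched.

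Groups were taken from the sample labels. Counts were tested with edgeR 4.0.16 (R 4.3.3, quasi-likelihood, TMM, 1 coefficient per group, all libraries of a study in one fit), over 13193 and 13650 genes with an average log2 CPM of at least 0.5 (introns, 21798 of at least 1), with Benjamini-Hochberg adjustment over all of them. A gene was called at a log2 fold change of at least 1 in size and an adjusted p of at most 0.05; interactions, fitted on the 12 libraries of a day in study 1, needed the adjusted p alone. The authors used limma-voom with the same thresholds. CPM values use TMM-scaled totals, and levels per kb divide by the union of annotated exons. Median depth was 119947485 and 60653526 reads, so precision rests on the number of libraries rather than on counting error. Editing shares are edited over all reads at a gene's sites, compared by exact permutation within days over 8000 relabelings. The planned minimum of 10 reads per site in every library left no member site, so values without it are given; limits at a share of 0 cover counting error only.

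The members, gene lists and rules were chosen with earlier results of these data known. All 7 members are named, then genes of the lists that were called after IFN-α or the double edit on day 5, and for each member the 3 genes of highest correlation; some named genes and a marker are not reported here. DCP1A, on the list of ZAP partners, was not matched to an identifier. PARP10 promoter sequence is not shown. The study describes the replicates of both RNA-seq experiments as independent experiments, so p-values rest on the spread between them; whether a replicate number marks one experiment across groups is not given in the sources used here. No 2 libraries of a group agreed within sampling noise. Libraries with the same replicate number deviated together (r over 0.1 for every pair) in 10 of the study 1 comparisons, the double edit on day 4 among them. The fits were tested on simulated data. Alternatives were other scalings (RLE, library totals), DESeq2 1.42.0, limma-voom 3.58.1, the filter, the replicate block, GFP as control and each library left out.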

Additional observations from a re-analysis of the deposited data

Results flagged for a closer look

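In study 1 the change under both guides differed from the sum of the changes under each guide for 4 members on day 4 and 6 on day 5, by the test of the interaction itself. On day 4 the interaction, on the log2 scale, was 0.98 for PARP9, 0.90 for PARP12, 0.86 for PARP10 and 0.76 for PARP14. On day 5 it was 3.91 for PARP12, 3.87 for PARP9, 3.46 for PARP14, 2.74 for DTX3L, 2.23 for PARP10 and 1.57 for ZC3HAV1. In each of these 10 values the double-targeted cells lay above the sum. Of all genes, 3.11% had a positive and 0.925% a negative interaction on day 4, and 22.8% and 25.5% on day 5. No group has the 4 or more libraries needed to look for single libraries that stand apart.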

How the results depend on the processing

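Of 41 counts of members recomputed under 537 alternatives, 501 stayed within 1.5 times the reported count and 36 moved. The 6 calls of the double edit and the 5 of IFN-α were 6 and 5 without any one library. Leaving out 1 library at a time gave ranges of 1 to 2 members for the double edit against CTRL on day 4 (1 without CTRL replicate 1 or ADAR+hnRNPC replicate 3), 1 to 2 against ADAR on day 4, 0 to 2 against hnRNPC on day 4, 3 to 5 for the interaction of day 4 and 3 to 5 for the double edit against IFN-α. In study 2, where a group is then 1 library assumed to vary like the others, the ranges were 1 to 3 for ADAR in total RNA, 1 to 2 in cytosolic RNA, 0 to 2 for the interaction in total RNA, 0 to 2 for cytosolic against total RNA in CTRL, 0 to 1 in double-targeted cells and 0 to 2 for cytosolic against digitonin-insoluble RNA. The replicate block raised the interaction counts from 4 to 5 on day 4 (DTX3L) and from 6 to 7 on day 5 (PARP11) and from 0 to 1 in total RNA of study 2, and changed no other count of genes or introns. The last was also 1 with RLE size factors, 2 with library totals, 2 with no filter other than 1 count and 3 with DESeq2. The cause was not tested. Same-numbered libraries of study 2 deviated in opposite directions for hnRNPC against CTRL in total RNA and for cytosolic against digitonin-insoluble RNA, and with crossed numbers, an alternative added after seeing the data, these comparisons had 0 and 1 members. GFP-targeted cells as control left 0 introns for hnRNPC. On the linear scale, with no test, the double-targeted mean exceeded the sum of the single differences for 3 members on day 3, 7 on day 4, 6 in total and 6 in cytosolic RNA of study 2.

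Editing could not be tested with at least 10 or 20 reads per site in every library, nor as a mean of the sites' own shares. With no minimum, 3 genes passed for ADAR against CTRL and 3 for ADAR+hnRNPC against hnRNPC, with the limits on the days and the choice of sites given above. Added after seeing the data, the replicate block gave 2 and 3, with PARP9 at an exact permutation p of 0.0938 in the first, and leaving out a replicate number gave 2 to 3 in both.

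Of 77 single member values under 1113 alternatives, 1068 kept their direction and side of the threshold. Signs turned for values near 0. For PARP11, leaving out 1 library gave −0.26 to 0.12 under IFN-α, −0.026 to 0.17 between days 4 and 5 of double-targeted cells, −0.52 to 0.31 for ADAR in total RNA and −0.48 to 0.0045 for ADAR+hnRNPC in cytosolic RNA of study 2, and its day 4 interaction was −0.017 with GFP as control. ZC3HAV1 under ADAR in total RNA of study 2 turned to −0.034 with RLE, −0.013 with library totals and −0.090 with DESeq2, and lay between −0.050 and 0.085 with 1 library left out. PARP12 in cytosolic against total RNA turned to −0.036 with library totals and −0.015 with DESeq2.

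Library totals without TMM shifted the median of all genes by 0.118 for the double edit of day 4 (606 genes higher and 98 lower, against 451 and 170 with TMM), 0.108 for day 5 (1482 and 575, against 1241 and 821), 0.183 against IFN-α (1593 and 393, against 1166 and 744) and 0.212 in total RNA of study 2 (696 and 42, against 459 and 127). For the interaction in total RNA of study 2 TMM gave 980 genes higher and 2167 lower, RLE 1190 and 1701, and library totals 1441 and 933 with a shift of 0.237. They also called PARP9 against IFN-α (1.15) and PARP10 in total RNA of study 2 (1.12). Reads per gene were not the limit for 6 members, but PARP11, at 2.45 to 5.63 CPM in study 1, and the reads at editing sites were low.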
